A study of Bos taurus and Mus musculus with 16 samples.

Results

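The genes described here are 10 mouse genes of the 2-cell stage that occur as several similar copies or belong to families of them, out of 16655 genes in the mouse table. They are Usp17la, Usp17lc and Usp17le, Tdpoz1, Tdpoz3 and Tdpoz4, Zscan4c and Zscan4d, Gm5662 and Zfp352, and all 10 had a row. They were taken by symbol, with their difference between edited and control morulae already known, so that difference is given below as a description, with no test. Because copies resemble each other, all 5 Usp17l, 5 Tdpoz and 4 Zscan4 rows were also summed in each sample, which brings the rows described to 16. The edited group came from zygotes that received a mix of single guide RNAs against Tead4 with mRNA for BE3 (a Cas9 nickase fused to a cytidine deaminase, which edits C to T), and the control group from zygotes that received BE3 mRNA and no guide RNA. Both groups were collected as morulae 3.25 days after fertilization, with 2 edited and 2 control samples. Smart-seq2 libraries of polyadenylated RNA were sequenced. Bovine blastocysts of day 7.0, with 6 TEAD4-edited and 6 control samples of the same design, served for the related gene ZSCAN4. The sources used here give neither the strain, nor the number of embryos in a sample, nor whether samples came from separate injections. Each p-value below therefore reflects sample-to-sample spread that could be technical, and injection of guide RNA as such cannot be told apart from loss of Tead4.

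In the mouse the embryonic genome becomes strongly active at the 2-cell stage, and a brief burst of transcripts marks that stage. The homeobox factor Dux (Duxf3 in the annotation) activates many of these genes, a number of which lie in tandem arrays or use promoters of an endogenous retrovirus, and most are silenced again during cleavage. Cells resembling that stage also arise at low frequency in cultures of mouse embryonic stem cells, where Zscan4 genes are standard markers of them. Usp17l genes (also called Dub genes) encode deubiquitinating enzymes, Tdpoz genes encode proteins with TRAF and POZ/BTB domains, Zscan4 genes encode SCAN-domain zinc finger proteins linked to telomere maintenance, and Zfp352 encodes a zinc finger protein.

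How far a read can be tied to one copy depends on the sequence, so coding sequence of the copies is shown first, from the GENCODE M21 annotation of GRCm38 (mm10, the build in the submitters' processing notes). Each stretch has 75 bases, the first in the alignment of the coding sequences in which no copy has a gap and every copy stays within 1 exon, written 5′ to 3′. Capitals mark bases that differ from the most common base of the family at that place. Where the most common bases tied, every copy has a capital. The Usp17l copies lie on chromosome 7 and begin at coding base 29, except Usp17le at base 131.
Usp17la (chr7:104860218-104860292, plus strand): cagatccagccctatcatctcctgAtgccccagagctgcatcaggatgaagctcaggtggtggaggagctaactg
Usp17lb (chr7:104841616-104841690, minus strand): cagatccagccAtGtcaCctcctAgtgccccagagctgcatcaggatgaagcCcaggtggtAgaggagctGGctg
Usp17lc (chr7:103417528-103417602, plus strand): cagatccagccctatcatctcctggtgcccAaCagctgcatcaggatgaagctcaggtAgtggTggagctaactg
Usp17ld (chr7:103251621-103251695, minus strand): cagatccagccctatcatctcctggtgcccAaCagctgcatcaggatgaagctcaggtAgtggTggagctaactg
Usp17le (chr7:104769729-104769803, minus strand): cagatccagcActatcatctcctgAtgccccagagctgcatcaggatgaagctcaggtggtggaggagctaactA

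Usp17lc and Usp17ld were the same in this stretch, and over 1635 aligned coding bases they were 98.4% identical. The other pairs of Usp17l copies were 90.5% to 94.4% identical. Usp17lb carried 8 capitals, the most of the 5.

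The Tdpoz copies lie on chromosome 3 and are shown from their start codon.
Tdpoz1 (chr3:93671401-93671475, minus strand): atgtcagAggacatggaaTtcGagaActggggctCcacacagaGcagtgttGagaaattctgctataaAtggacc
Tdpoz2 (chr3:93652589-93652663, minus strand): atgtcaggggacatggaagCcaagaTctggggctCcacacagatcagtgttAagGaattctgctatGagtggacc
Tdpoz3 (chr3:93826020-93826094, plus strand): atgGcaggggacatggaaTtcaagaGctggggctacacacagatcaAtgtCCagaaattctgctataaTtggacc
Tdpoz4 (chr3:93796398-93796472, plus strand): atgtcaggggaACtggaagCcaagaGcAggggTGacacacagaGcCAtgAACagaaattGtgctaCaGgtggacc
Tdpoz5 (chr3:93961240-93961314, minus strand): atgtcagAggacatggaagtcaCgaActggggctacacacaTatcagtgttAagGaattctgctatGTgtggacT

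The Tdpoz copies were the most diverged of the families, with coding sequences 76.4% to 88.0% identical, and Tdpoz4 stood apart with 16 capitals. The Zscan4 copies and Gm5662 were closer to their relatives. Of the Zscan4 rows, Zscan4a is annotated as an unprocessed pseudogene and has no coding sequence to show.
Zscan4c (chr7:11006556-11006630, plus strand): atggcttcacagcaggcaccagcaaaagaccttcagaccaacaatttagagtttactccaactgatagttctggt
Zscan4d (chr7:11165274-11165348, minus strand): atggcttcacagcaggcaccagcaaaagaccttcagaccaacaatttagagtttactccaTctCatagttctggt
Zscan4f (chr7:11398749-11398823, plus strand): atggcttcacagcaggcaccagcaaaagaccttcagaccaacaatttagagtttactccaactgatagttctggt
Gm5662 (chr12:88271914-88271988, minus strand): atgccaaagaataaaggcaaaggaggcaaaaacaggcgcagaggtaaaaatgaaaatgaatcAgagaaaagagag
Gm2016 (chr12:87876585-87876659, plus strand): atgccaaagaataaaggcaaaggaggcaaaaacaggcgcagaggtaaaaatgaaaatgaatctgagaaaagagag

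Zscan4c and Zscan4f were 99.6% identical over 1518 coding bases, and each was 97.7% identical to Zscan4d. Gm5662 was 97.0% to 99.1% identical to 5 related genes on chromosome 12 (Gm2016, Gm2022, Gm4027, Gm5039 and Gm8300), over 432 aligned coding bases, and closest to Gm2016.

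Cut into all overlapping words of 50 bases, the longest transcript of Zfp352 had 92.9% of its words in no other annotated gene, Usp17la 80.4% and Usp17lb 78.2%. Usp17le stood at 69.2% and Usp17lc at 55.3%, since Usp17lc shared 976 words with Usp17ld. Tdpoz4 had 58.8%, Tdpoz1 55.0% and Tdpoz3 33.8% of words of its own. The lowest values belonged to Tdpoz5 (0.0%), whose 974 words all recur in Gm10697, to Zscan4f (4.66%), to Zscan4c (14.5%) and to Gm5662 (22.1%), which shared 1291 of 1791 words with Gm2016. Among 10688 tested genes with a transcript of the same name the median was 100%, and 3.37% of them fell under 50%. A row with a high share of unique words mostly counts 1 gene. A row with a low share may count several genes or miss reads of its own, according to how multiply matching reads were counted. How the authors counted reads that match several places is not known from the sources used here.

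**Figure D1:**
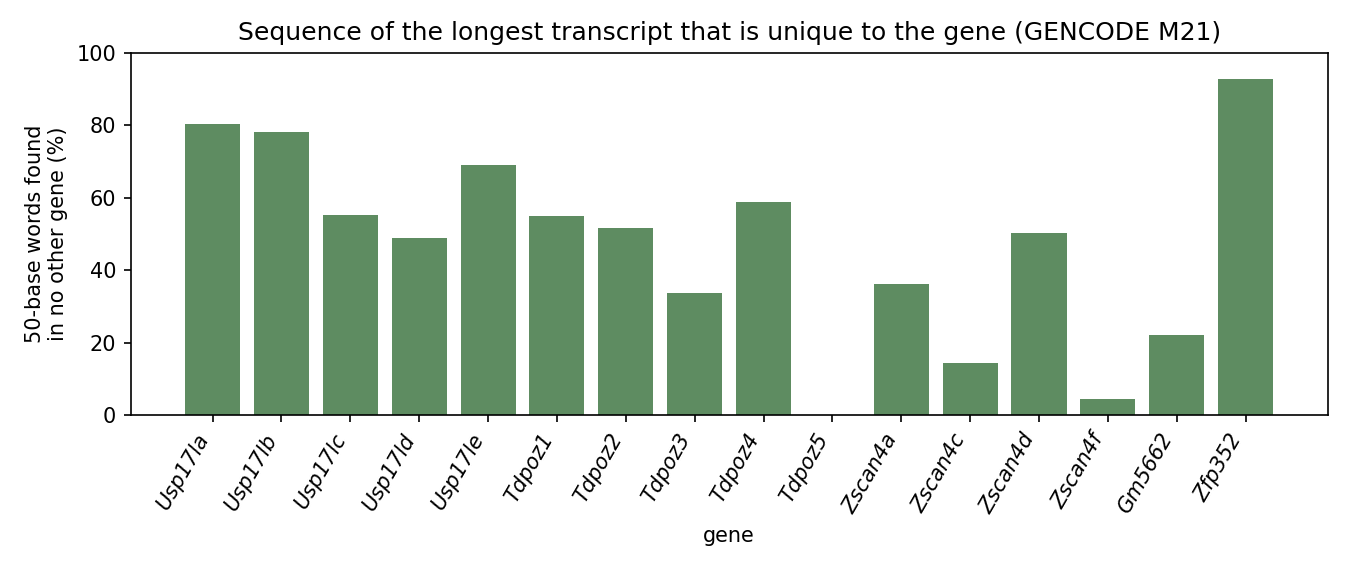
Share of the 50-base words of each gene's longest transcript that occur in no other annotated mouse gene (bars, in percent), for the 16 rows described. Zfp352 reaches 92.9% and Usp17la 80.4%, while Zscan4f is at 4.66% and Tdpoz5 at 0.0%.

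Read numbers recovered from the mouse table summed to 4386305 and 6109425 in edited and 4187826 and 3642907 in control samples. Reads not counted to a gene of that table are not in these sums. There 1 read equals 0.953 and 0.709 normalized reads in the edited and 1.12 and 1.26 in the control samples. Tead4 itself stood at 57.2 and 76.5 normalized reads in edited samples, against 458 and 519 in control samples, 13.7% of the control mean. All 12 listed markers of the preimplantation embryo had a row and were tested. Of them 2 rose and 5 fell (limma adjusted p under 0.05), where 6.92% of all tested genes rose and 8.38% fell. Those that rose were Pou5f1 and Tdgf1, and those that fell were Cdx2, Gata3, Krt8, Krt18 and Dppa5a. Of 15 markers of cumulus and granulosa cells, 4 had a row, summing to 164 and 108 normalized reads in edited and 87.2 and 44.3 in control samples. Of 8 blood markers, 4 had a row, summing to 81.0 and 50.3 in edited and 23.5 and 12.6 in control samples, and of 9 sperm markers 2 had a row, at 18.1 and 7.09 in edited and 19.0 and 12.6 in control samples. Cyp19a1, Fshr, Ptprc, Hbb-bs, Prm1 and Tnp1 were among the markers without a row. Of the cumulus and granulosa list 2 genes were tested and 1 rose, Vim, and of the blood list 2 were tested and 1 rose, Coro1a. Coro1a had a control mean of 4.13, so it was abundant enough to test only through its edited samples. Hba-a1, the other blood gene tested, had 36.2 and 4.96 in edited and 10.1 and 0 in control samples and did not pass. Cd52 of the blood list was too low to test and had a lower mean in edited samples (2.37 against 6.03). The part of other cells in the results was not tested, and in such pooled material more cells with a transcript and more transcript per cell cannot be told apart.

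All 10 genes had a higher mean in edited than in control morulae, and for 8 of them both edited samples lay above both controls. Genes were tested where their mean over the 4 samples reached 10 normalized reads, and of these 11386 genes 28.6% had both edited samples above both controls. Of the 10 members 8 passed that filter, several of them only through their edited samples. The last inside was Zscan4d with a mean of 10.5, and Tdpoz3 (7.93) and Zscan4c (7.80) stayed outside. Since the members were chosen on this contrast, nothing is read from these counts.

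**Figure D2:**
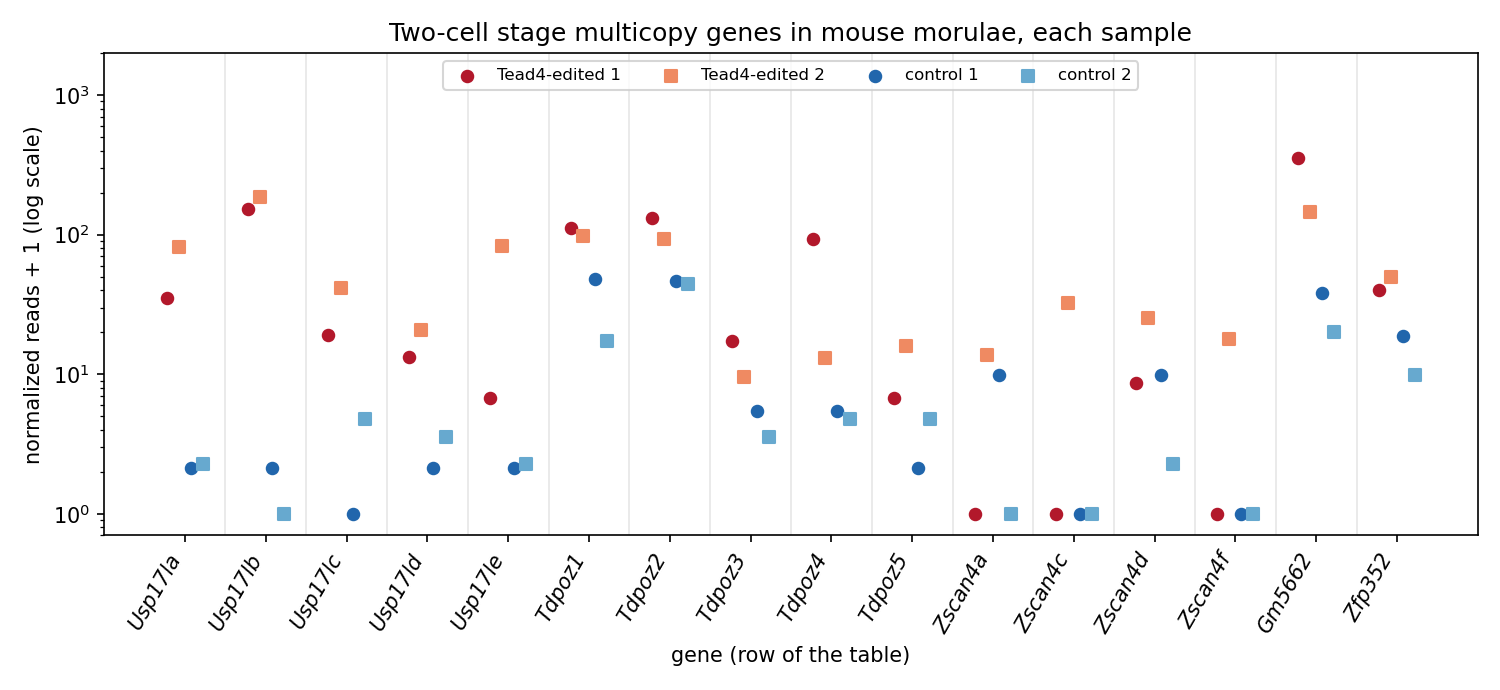
Normalized reads plus 1 (log axis) of the 16 rows in each mouse sample, Tead4-edited samples in red and orange, control samples in blue. In the Usp17l and Tdpoz rows, Gm5662 and Zfp352 both edited samples lie above both controls, whereas Zscan4c and Zscan4f are above 0 in edited sample 2 alone.

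The Usp17l genes showed the widest gap. Summed over 5 rows they had 223 and 408 normalized reads (234 and 576 reads) in edited samples, against 4.47 and 8.85 (4 and 7 reads) in control samples. The groups did not overlap, and the mean was 47.4 times as high in edited morulae (316 ± 131 against 6.66 ± 3.10, SD, n = 2 each). Usp17la (chromosome 7, 104857009 to 104862667, plus strand) had 34.3 and 80.8 normalized reads in edited samples, against 1.12 and 1.26 in controls, each of which is a single read. Its ratio of 51.4, from reads summed over each group and scaled by the same normalization, therefore rests on 2 control reads in all. Usp17lc (chromosome 7, 103415072 to 103419880, plus strand) had 18.1 and 40.4 in edited samples, against 0 and 3.79 in controls. Its ratio, taken in the same way, was 17.4 and rests on 3 control reads.

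Usp17le (chromosome 7, 104768049 to 104777470, minus strand) differed most of the Usp17l rows between the edited samples, with 5.72 and 81.5 normalized reads, against 1.12 and 1.26 in controls. Its ratio of edited over control reads, summed and scaled as for Usp17la, was 41.5 and rests on 2 control reads. The ratio of normalized reads between edited samples 2 and 1 was 14.2. Of the copies outside the 10 named genes, Usp17lb had the highest level of the family, with 153 and 186 normalized reads in edited samples, against 1.12 and 0 in controls, where 3 reads would be 3.35 and 3.79. It made up 68.4% and 45.5% of the family's reads in the edited samples. Usp17ld had 12.4 and 19.8 in edited samples, against 1.12 and 2.53 in controls. Every one of the 5 rows thus had both edited samples above both controls, as did 28.6% of all tested genes. All 5 were higher in edited sample 2 than in edited sample 1. The copies share sequence, and the members among them were chosen on this contrast, so nothing is read from these counts. Usp17lc overlaps 1 other annotated gene, Gm25774, and none of the other 15 rows overlaps any.

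**Figure D3:**
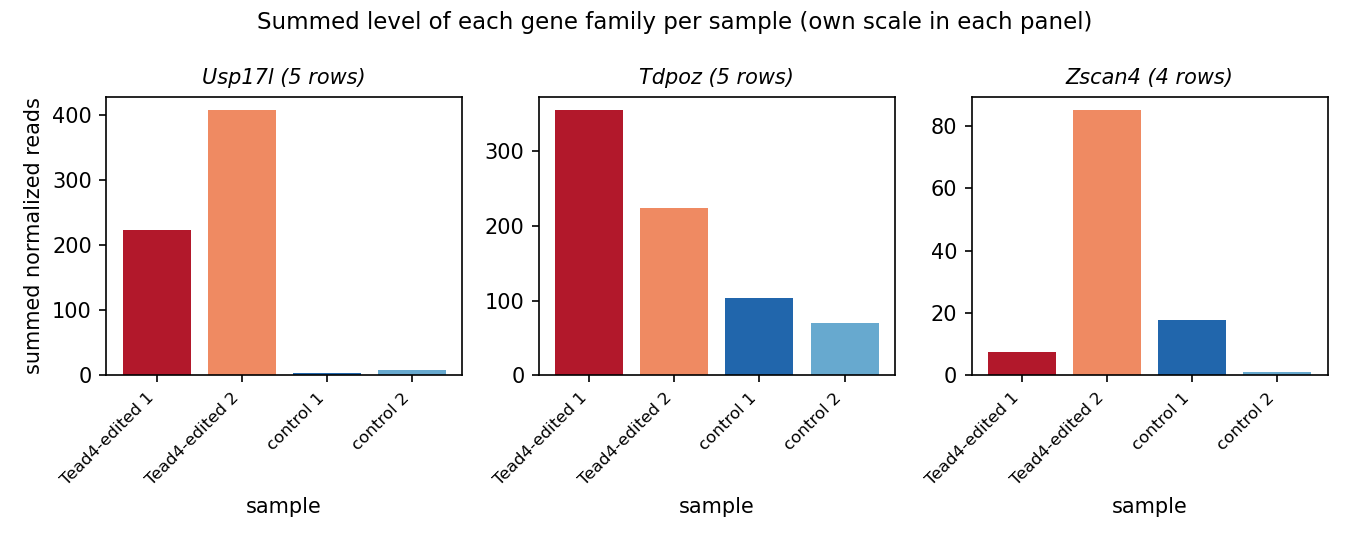
Summed normalized reads of the Usp17l, Tdpoz and Zscan4 rows in each mouse sample (bars from 0, each panel with its own scale; edited samples left of controls). Usp17l sums to 223 and 408 in edited and 4.47 and 8.85 in control samples, and Zscan4 reaches 85.1 in edited sample 2 against at most 17.9 elsewhere.

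The Tdpoz genes were already present in control morulae and differed less. Their sum was 355 and 223 normalized reads (372 and 315 reads) in edited samples, against 103 and 69.6 (92 and 55 reads) in control samples, a mean 3.35 times as high in edited morulae. Here edited sample 1 was the higher of its group, the reverse of Usp17l. Tdpoz1 (chromosome 3, 93669333 to 93676310, minus strand) had 111 and 96.4 in edited samples, against 46.9 and 16.4 in controls, a log2 fold change of 1.85 ± 0.40 (SE of limma, n = 2 each). Tdpoz4 (chromosome 3, 93796398 to 93797510, plus strand) had 92.5 and 12.0 in edited samples, against 4.47 and 3.79 in controls, at 2.77 ± 0.75. Its edited samples thus differed from each other by a factor of 7.68, and its share of the family's reads was 26.1% in edited sample 1 and 5.40% in edited sample 2, against 4.35% and 5.45% in controls.

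Tdpoz3 (chromosome 3, 93826020 to 93827117, plus strand) rested on few reads, with 16.2 and 8.51 normalized reads in edited samples, against 4.47 and 2.53 in controls. Its ratio of 3.31, from summed and scaled reads, rests on 29 edited and 6 control reads. Of the copies not among the 10, Tdpoz2 had 129.7 and 91.4 in edited samples, against 45.8 and 43.0 in controls, and Tdpoz5 5.72 and 14.9, against 1.12 and 3.79. Tdpoz1 and Tdpoz2 together held most of the family's reads in every sample.

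The Zscan4 genes had few reads, most of them in edited sample 2. Their sum was 7.63 and 85.1 normalized reads (8 and 120 reads) in edited samples, against 17.9 and 1.26 (16 reads and 1 read) in control samples, so the groups overlapped. Zscan4c (chromosome 7, 11005745 to 11010547, plus strand) had 0 and 31.2 in edited samples and 0 in both controls. A count of 0 allows up to 3 reads, which are 2.86 normalized reads in edited sample 1 and 3.35 and 3.79 in the controls. Zscan4d (chromosome 7, 11161374 to 11166159, minus strand) had 7.63 and 24.1 in edited samples, against 8.94 and 1.26 in controls, a log2 fold change of 1.63 ± 0.88. Zscan4f followed Zscan4c, with 0 and 17.01 in edited samples and 0 in both controls. Zscan4a had 0 and 12.8, against 8.94 and 0. The difference of the log2 sums was 2.06, with a pooled SD within groups of 2.26, and without edited sample 2 it was 0.40.

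Gm5662 (chromosome 12, 88270640 to 88274500, minus strand) had 354 and 145 normalized reads in edited samples, against 36.9 and 19.0 in controls, a log2 fold change of 3.05 ± 0.38. The groups did not overlap. Zfp352 (chromosome 4, 90218820 to 90225702, plus strand), the member with the most sequence of its own, had 39.1 and 48.9 in edited samples, against 17.9 and 8.85 in controls, a log2 fold change of 1.71 ± 0.50. In the authors' deposited table, from the same samples, its log2 fold change was 1.71 as well. For other rows the values differed, as for Usp17le (5.21 there, 3.43 by limma) and Tdpoz4 (3.65 there, 2.77 by limma).

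Per kilobase of exon, Gm5662 had the highest mean level in edited morulae, at 192 and 78.6 normalized reads per kb. Usp17lb followed with 97.7 and 119 and Tdpoz2 with 113 and 79.9, and the ranges of these 3 overlapped. Tdpoz4 (83.1 and 10.8) and Tdpoz1 (47.0 and 41.0) came next and overlapped too, then Usp17le (2.88 and 41.0), Usp17la (12.9 and 30.4) and Zfp352 (17.2 and 21.5), whose ranges again overlapped. In control morulae the order per kb was another, with Tdpoz2 at 40.0 and 37.6, Gm5662 at 20.04 and 10.3, Tdpoz1 at 19.9 and 6.99 and Zfp352 at 7.86 and 3.89, while the highest control value of a Usp17l row was 1.55. Of the 10 members, 4 were higher in edited sample 1 and 6 in edited sample 2, so no single sample held the high values of all families. The sum over the 10 genes was 678 and 568.4 normalized reads in edited samples, against 122 and 58.2 in controls.

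Other genes of the 2-cell program were read from the same fit, without the members. Of 44 listed genes, 33 had a row and 25 were tested, of which 13 rose and 1 fell at a Benjamini-Hochberg adjusted p under 0.05 (limma, two-sided). That is 52.0% of the list called higher, beside 6.92% of all 11386 tested genes (8.38% were called lower and 15.3% in either direction), and the list median was 1.53 on the log2 scale, beside -0.0049 for all genes. The list was drawn up with earlier results of these data known. Several of the genes called passed the filter only through their edited samples, among them Gm4027 and Gm5039, with control means of 1.75 and 2.79. The share and the median are therefore given as a description only. Without edited sample 1, 8 of the list rose. Of the 25, 6 share words with the rows described, and 5 of these rose. Of the 19 that share none, 8 rose and 1 fell, with a median of 1.36.

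**Figure D4:**
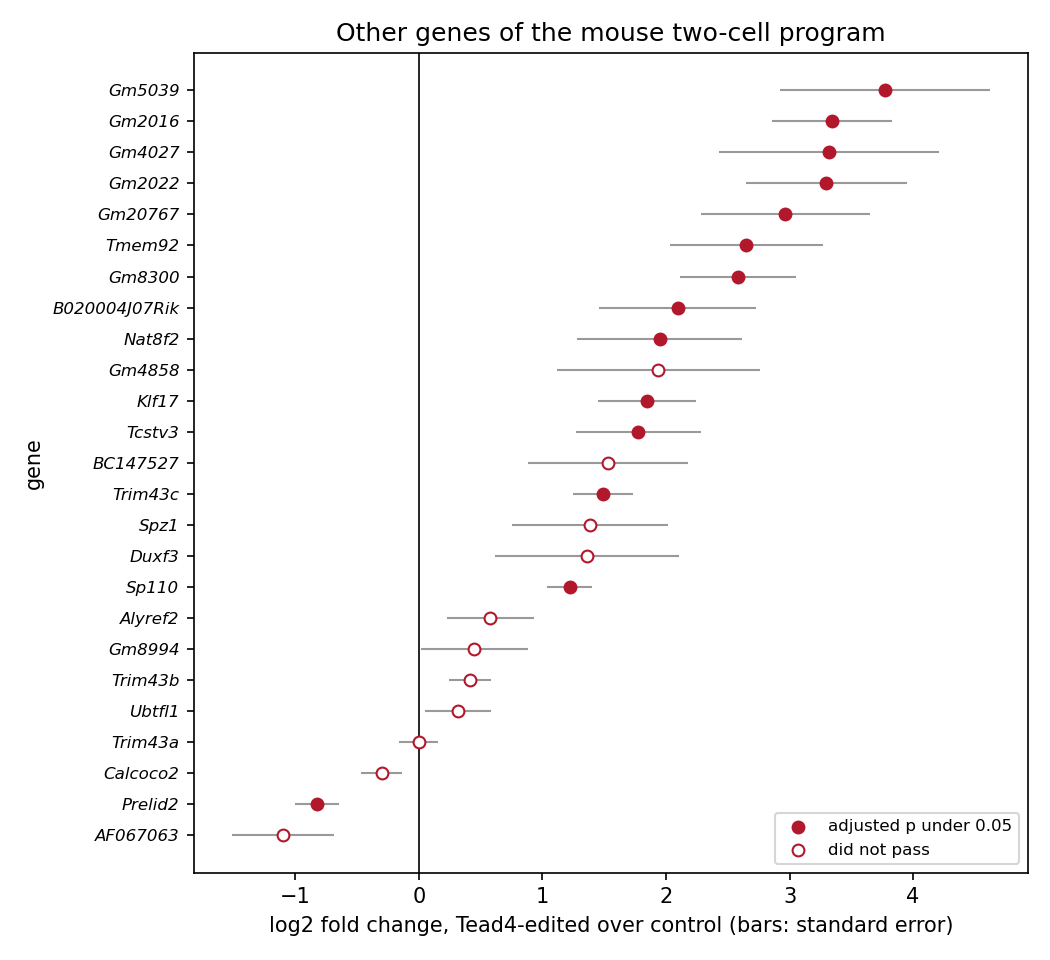
Log2 fold change of edited over control morulae with its standard error (bars) for the 25 tested other genes of the mouse 2-cell program, filled where the limma adjusted p is under 0.05. The 13 filled points right of 0 reach from Sp110 at 1.22 to Gm5039 at 3.77, and Prelid2 (-0.82) is the filled point on the left.

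All 5 of the named relatives of Gm5662 on chromosome 12 rose. Gm5039, with 82.7% of its words unique, had 42.9 and 26.9 normalized reads in edited samples, against 5.59 and 0 in controls (3.77 ± 0.85, limma adjusted p = 0.00322). Gm2016 had 199 and 133, against 34.6 and 6.32 (3.34 ± 0.48, adjusted p = 3.48e-05). Gm2022 had 73.4 and 29.8, against 2.23 and 6.32 (3.30 ± 0.65, adjusted p = 0.000994), and Gm4027 70.6 and 9.21, against 2.23 and 1.26 (3.32 ± 0.89, adjusted p = 0.0110). Gm8300 had 49.6 and 106, against 11.2 and 11.4 (2.58 ± 0.47, adjusted p = 0.000467). These genes overlap in sequence, and 94.4% of the words of Gm4027 recur in BB287469, so they are not independent counts. The calls of Gm5039 (0.0529), Gm2022 (0.0584) and Gm4027 (0.472) were lost without edited sample 1, and that of Gm4027 also without control sample 2 (0.0641). Within 500 kb of Gm5662, 6 genes outside the 16 rows were tested and 5 rose (Gm1995, Gm2016, Gm2022, Gm5039 and Gm7104), beside 6.92% of all tested genes. Of these, Gm1995 and Gm7104 had control means of 6.85 and 5.10, so they passed the filter only through their edited samples. The same held for Gm2022 and Gm5039.

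Away from that cluster, Gm20767 on chromosome 13 had 24.8 and 44.7 normalized reads in edited samples, against 4.47 and 2.53 in controls (2.97 ± 0.68, limma adjusted p = 0.00392). Tmem92, a transmembrane protein gene, had 28.6 and 48.2, against 6.70 and 3.79 (2.65 ± 0.62, adjusted p = 0.00436). Gm20767 and Tmem92 had control means of 3.50 and 5.25, so they passed the filter only through their edited samples. Both calls were lost without edited sample 2 (0.0659 and 0.0584). Chosen after their values were seen, the abundant genes Sp110, of a nuclear body protein family, with 1250.0 and 1138 against 543 and 482, and Trim43c, of a tripartite motif family, with 902 and 481 against 200.02 and 273, passed in every alternative run. Its relatives Trim43a (0.00 ± 0.16) and Trim43b (0.42 ± 0.17, limma adjusted p = 0.0983) did not pass. Unique words made up 46.2% of Sp110, 57.65% of Trim43c and 29.8% of Gm20767, against 98.0% of Tmem92. Prelid2 was the gene of the list that fell (-0.82 ± 0.18, adjusted p = 0.00254), a call lost without control sample 1 (0.161).

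Dux itself was scarcely detected. Duxf3 (chromosome 10, 58229979 to 58232675, minus strand) had 10.5 and 22.0 normalized reads in edited samples, against 5.59 and 5.06 in controls, a log2 fold change of 1.36 ± 0.75 that did not pass (limma adjusted p = 0.233). Among 3 tested genes of the Obox and Dux homeobox list, 0 rose and 1 fell, with a median of 0.44. The gene that fell was Crxos, a homeobox gene of the early embryo, with 8756 and 8968 in edited samples, against 17383 and 12361 in controls (-0.73 ± 0.17, adjusted p = 0.00388), a call lost without control sample 1 (0.246). Of 12 tested Prame-like genes, which encode leucine-rich repeat proteins and also lie in arrays of copies, 3 rose (25.0%, beside 6.92% of all tested genes) and 0 fell (beside 8.38%), with a median of 0.00. The homeobox and Prame-like lists were drawn up with earlier results known, so their counts are a description only.

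Pramef25 had 38.1 and 95.7 normalized reads in edited samples, against 1.12 and 3.79 in controls (4.27 ± 0.67, limma adjusted p = 9.08e-05). Gm13119 had 11.4 and 112, against 0 and 2.53 (4.32 ± 0.95, limma adjusted p = 0.00257), and BC080695 10.5 and 48.2, against 3.35 and 0 (3.51 ± 0.97, adjusted p = 0.0135). Pramef25, Gm13119 and BC080695 had control means of 2.46, 1.26 and 1.68, so they passed the filter only through their edited samples. Of their words 36.45%, 61.4% and 44.7% were unique. All 3 were higher in edited sample 2, and without that sample the calls of Gm13119 (0.237) and BC080695 (0.282) were lost. DESeq2 did not call Gm13119 (0.0671). BC080695 was also lost without control sample 2 (0.114).

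Factors known from mouse embryonic stem cells to act on the 2-cell program were listed as well. This list too was drawn up with earlier results of these data known, so its shares are a description only. Of 33 tested regulators and repressors, 5 rose (15.2%, beside 6.92% of all tested genes) and 1 fell (3.03%, beside 8.38%), with a list median of 0.22, beside -0.0049 for all genes. Dppa2 (0.08 ± 0.16, limma adjusted p = 0.789) and Dppa4 (-0.29 ± 0.16, adjusted p = 0.245), activators of Dux, did not pass. Trp53, which encodes the tumour suppressor p53, had 790.4 and 1015 normalized reads in edited samples, against 622 and 564 in controls (0.60 ± 0.19, adjusted p = 0.0306). The call of Trp53 was lost in 3 of 4 fits that left out 1 sample, with adjusted p up to 0.289, and without a filter (0.0508). The histone deacetylase gene Hdac1 rose by 0.997 ± 0.170 (adjusted p = 0.000219), with 41.3% of its words unique. Nelfa (0.87 ± 0.22), a subunit gene of the negative elongation factor, Pias4 (0.80 ± 0.23), a SUMO ligase gene, and Ep400 (0.66 ± 0.21), a chromatin remodeller gene, rose as well. Ehmt2, which encodes the histone methyltransferase G9a, fell (-0.73 ± 0.22, adjusted p = 0.0267). The calls of Nelfa, Pias4, Ep400 and Ehmt2 were lost without either control sample, with adjusted p up to 0.366. Pias4 was also lost without edited sample 1 (0.115), Ep400 without a filter (0.0566), and Ehmt2 without edited sample 2 (0.0752) and with every sample scaled to the same total (0.0684).

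Oocyte and maternal transcripts, which are made before the 2-cell stage, mostly had no row or were under the filter. Of 25 listed genes 18 had a row and 8 were tested, of which 1 rose (12.5%, beside 6.92% of all tested genes) and 2 fell (25.0%, beside 8.38%), with a median of 0.58. These shares are a description only, as the list was drawn up with earlier results known. Zbed3 rose, at 58.2 and 39.7 normalized reads in edited samples, against 3.35 and 5.06 in controls (3.26 ± 0.60, limma adjusted p = 0.000519). With a control mean of 4.21, Zbed3 passed the filter only through its edited samples. Ooep, of the subcortical maternal complex, fell, at 35.3 and 52.4, against 156 and 166 (-1.88 ± 0.31, adjusted p = 0.000157). Dppa3 (Stella), a maternal factor also made by the embryo, fell too, at 14090.1 and 12775, against 30357 and 24594 (-1.03 ± 0.16, adjusted p = 8.89e-05).

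The mean profile of the 8 members past the filter, on log2(value + 1) and centred on each gene's mean, was 1.204 and 1.64 in edited samples and -1.22 and -1.62 in control samples. The named genes nearest to it over these 4 samples, by Euclidean distance and leaving out predicted loci, were Tmem92 (0.349), Coro1a (0.416), Dusp26 (0.466), Isl1 (0.472), Defb42 (0.508), Zfp750 (0.523), Cotl1 (0.526) and Efcab12 (0.617). Coro1a and Cotl1 encode actin-binding proteins, Dusp26 a phosphatase, Isl1 a LIM homeobox factor and Defb42 a defensin. Tmem92 also stands in the 2-cell list, and Coro1a in the list of blood markers. The members themselves lay farther from their mean profile, at 1.19 (Zfp352) to 2.35 (Usp17le), and the median over all tested genes was 2.92.

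Other genes near the Tdpoz, Usp17l and Zscan4 rows were read from the same fit. Within 500 kb of the Tdpoz rows 7 other genes were tested, of which 1 rose and 2 fell, where 6.92% of all tested genes rose and 8.38% fell. These were Them5, a thioesterase gene (1.86 ± 0.58), and the calcium-binding protein genes S100a10 (-1.73 ± 0.26) and S100a11 (-4.04 ± 0.28), named after their values were seen. S100a11 had 40.0 and 90.7 normalized reads in edited samples, against 882 and 1147 in controls. Near the Usp17l rows 2 genes were tested, of which 0 rose and 1 fell, and near the Zscan4 rows none was abundant enough to test.

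The bovine table was searched for the same families. Its 14852 genes held a single row among the symbols searched, ZSCAN4. In edited bovine blastocysts ZSCAN4 ranged over 38.9, 49.3 and 67.9 normalized reads (lowest, median and highest of 6), against 23.1, 38.8 and 106 in the 6 control samples. The means were 49.8 ± 10.9 in edited and 50.7 ± 30.2 in control samples (SD), and all edited values lay within the range of the controls. The log2 fold change was 0.13 ± 0.29 with a 95% interval of -0.48 to 0.74 and did not pass (limma adjusted p = 0.937). In that table limma called 1 of 8884 tested genes, or 0.0113%, and 522 at an unadjusted p under 0.05. Stage and species differ from the mouse samples, and the difference between species was not tested.

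**Figure D5:**
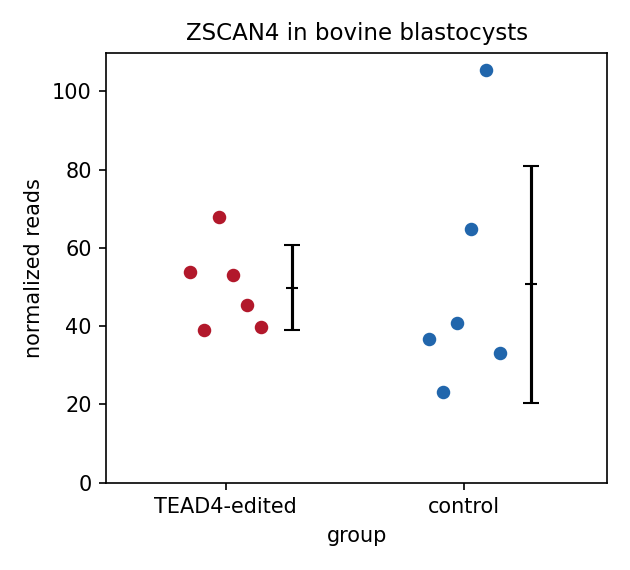
ZSCAN4 in each bovine blastocyst sample (points, normalized reads; black, mean and SD), TEAD4-edited left and control right. The edited samples lie between 38.9 and 67.9 and the control samples between 23.1 and 106.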

How the data were processed

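Oligo(dT)-primed Smart-seq2 libraries were made, per the labels' protocols. Trimming with Trimmomatic, HISAT2, featureCounts and DESeq2 (no versions) and the builds mm10 and ARS-UCD1.2 come from the submitters' processing notes. The sources used here do not say which annotation was used, whether strand was, or how multiply matching reads were counted. Each deposited signal value is a gene's read count over its sample's DESeq2 size factor, per the file headers. In each mouse sample 100% of values were whole multiples of 1 read (tolerance 0.05 reads), which gave the read numbers. The deposited tables also hold the authors' log2 fold changes, p-values and a test score, of which only values named as theirs are quoted.

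Genes whose mean reached 10 normalized reads were tested within each species by limma 3.58.1 under R 4.3.3, with an intensity trend, edited minus control, two-sided, at a Benjamini-Hochberg adjusted p of 0.05. Values were taken as log2(value + 1), a scale that understates changes of low genes. The fit was tested on simulated data. Members and lists were chosen with earlier results of these data known. Members were named by symbol with every Usp17l, Tdpoz and Zscan4 row. From each list the called genes were named, up to 6 in order of change size, and Duxf3, Dppa2, Dppa4 and Trp53 in any case. Ratios of edited over control reads are of reads summed over a group's samples, scaled by their size factors. They are descriptions without a test. Coding sequences were aligned with MAFFT 7.526. Words were compared on the transcript strand, and reads were not realigned. Alternatives were 2 other pseudocounts, 2 other filters, scaling to equal totals, robust limma, edgeR 4.0.16, DESeq2 1.42.0, the replicate number as a term and leaving out each mouse sample.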

Additional observations from a re-analysis of the deposited data

How the results depend on the processing

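Of 1742 mouse genes called by limma (788 higher, 954 lower), fits leaving out 1 sample called 533 to 2573 (285 to 1067 higher, 227 to 1506 lower). With edgeR on the recovered reads 1670 genes were called and with DESeq2 1354. Scaling to equal totals put the median of all genes at 0.12, with 1113 higher and 684 lower. The other 2-cell genes that rose numbered 13, 8 to 11 in fits leaving out 1 sample, and 4 at a mean of at least 50, which leaves fewer of them to test. Of the 13, 4 (Gm8300, Gm2016, Sp110 and Trim43c) were called under every alternative that tested them. The log2 difference of the summed Usp17l rows was 5.37, and 4.74 with a pseudocount of 5, which shrinks low values by construction. Leaving out 1 sample gave 4.93 to 5.80 for Usp17l, 1.39 to 2.06 for Tdpoz (1.72 with all samples) and 0.40 to 3.72 for Zscan4. All 3 sums kept their sign under every alternative run. Since the members were chosen on this contrast, nothing is read from that, and the Zscan4 groups overlapped. Bovine ZSCAN4 did not pass under any of its 5 alternatives, and the count test planned for it was not run.

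With the replicate number as a block, 1816 mouse genes (838 higher, 978 lower) and 13 of the other 2-cell genes were called, and bovine ZSCAN4 stood at 0.13. Same-numbered mouse samples share only a number as far as the labels say (correlation of their deviations over genes 0.11).

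Depth limits the low rows: all 5 Usp17l rows had 0 to 3 reads in both control libraries, as did Tdpoz5, Zscan4c and Zscan4f.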
